A study of Mus musculus with 4 samples.

Results

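Dermal white adipose tissue (dWAT) is the fat layer that surrounds the lower ends of hair follicles (HFs), and cutaneous nerves run through it. Its transcriptome was sequenced in 4 libraries, 1 for each group, all from C57BL/6 mice and with tissue of 20 mice taken for each group. OTD and YTD came from old (18 months) and young (2 months) mice in telogen, the resting phase of the HF, and OAD and YAD from old and young mice in anagen, the growth phase, which followed depilation. The age tag in the sample labels gives 18 months for YTD and 2 months for OAD, whereas their titles call the first young and the second old, and the titles were followed. Both anagen groups had their hair plucked and the telogen groups did not, so phase and plucking cannot be told apart. Each group is a single library, so the spread between replicates is unknown, no test between groups was possible and no p-value is given.

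The genes described are 7 that mark the Schwann cells of peripheral nerve, out of 22913 genes in the tables. They were chosen by name and matched by symbol: Mbp, Pmp22, Prx, Mag, Sox10, Ngfr and S100b, all of which were above 0 in all 4 libraries. Schwann cells are the glia of peripheral nerves. Myelinating Schwann cells wrap a single large axon in a compacted spiral of membrane, and non-myelinating (Remak) Schwann cells hold bundles of thin axons. In skin the thin sensory and sympathetic fibres outnumber the myelinated ones, and the bundles reach the HFs, the vessels and the fat.

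Values are FPKM, a gene's fragments per kilobase of its transcript and per unit of library depth. Where a fold is given, its 95% interval covers only the counting error of fragment numbers, estimated from the FPKM at a depth of 15387967 to 20567488 fragments per library, and not the variation between mice. A difference is that of log2(FPKM + 1), and a gene is called higher or lower when this is at least 1 in size. On that scale weakly expressed genes show smaller differences than their folds. Since whole tissue was sequenced, fewer Schwann cells and less RNA per Schwann cell cannot be told apart.

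The levels of other genes bear on whether these 7 report on peripheral nerve. The other 20 myelin genes examined were all above 0 in each library, and summed to 403 FPKM in OTD and 322 in YTD, against 121 in OAD and 144 in YAD. Large parts of the anagen sums came from Cadm4, Pou3f1 and Egr2, which were not lower in anagen. These 3 had 27.8, 21.4 and 14.3 FPKM in OAD and 27.2, 21 and 11 in YAD, and Pou3f1 and Egr2 are also made outside nerve. Of 4 genes of the oligodendrocyte, which makes myelin in the brain and spinal cord, Olig2 and Mobp were listed at 0 in all libraries. Mog stood at 0.156 FPKM in OTD and 0 elsewhere, and Opalin at 0.0269 in OAD and 0 elsewhere. Sox10, by contrast, is also made by melanocytes, and its level did not follow the myelin genes. Adipocyte markers summed to 7918 FPKM in OTD and 6552 in YTD, against 2756 in OAD and 1925 in YAD. All 12 were above 0, so adipocyte RNA was present in each library. They took 0.634% of all FPKM in OTD and 0.526% in YTD, against 0.338% in OAD and 0.278% in YAD. Hair matrix and shaft genes took more than this in anagen, 0.689% in OAD and 0.847% in YAD. Skeletal muscle markers took more than either in every library, 5.0% in OTD and 7.95% in YTD, against 1.81% in OAD and 1.61% in YAD. Mitochondrially encoded genes took 52.7%, 44.7%, 18.3% and 14.4% in the same order, which bears on any scaling between libraries.

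The 4 myelin genes were high in telogen and low in anagen. Mbp (myelin basic protein, which holds the inner faces of the myelin membrane together, chromosome 18) stood at 208 FPKM in OTD and 151 in YTD, against 28.1 in OAD and 22.4 in YAD. Both telogen libraries lay above both anagen libraries. The counts of Mbp cover the whole locus, which also makes non-myelin (golli) transcripts, and these could not be separated. Pmp22 (a 4-pass protein of compact myelin, also made by fibroblasts and other cells, chromosome 11, 63128982 to 63159547) stood at 268 FPKM in OTD and 189 in YTD, against 36.3 in OAD and 42.5 in YAD. It had the highest level of the 7 genes in every library. Prx (periaxin, which ties the outer Schwann cell membrane to the dystroglycan complex, chromosome 7, 27499324 to 27520214) stood at 13.6 FPKM in OTD and 11 in YTD, against 3.67 in OAD and 4.57 in YAD. Mag (myelin-associated glycoprotein, an adhesion molecule at the inner, axon-facing membrane, chromosome 7, 30899176 to 30914865) stood at 2.29 FPKM in OTD and 2.87 in YTD, against 0.342 in OAD and 1.04 in YAD. Mag had the lowest level in each library, and its OAD value rests on an estimated 13.7 fragments. All coordinates are on GRCm38 and span the gene.

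**Figure D1:**
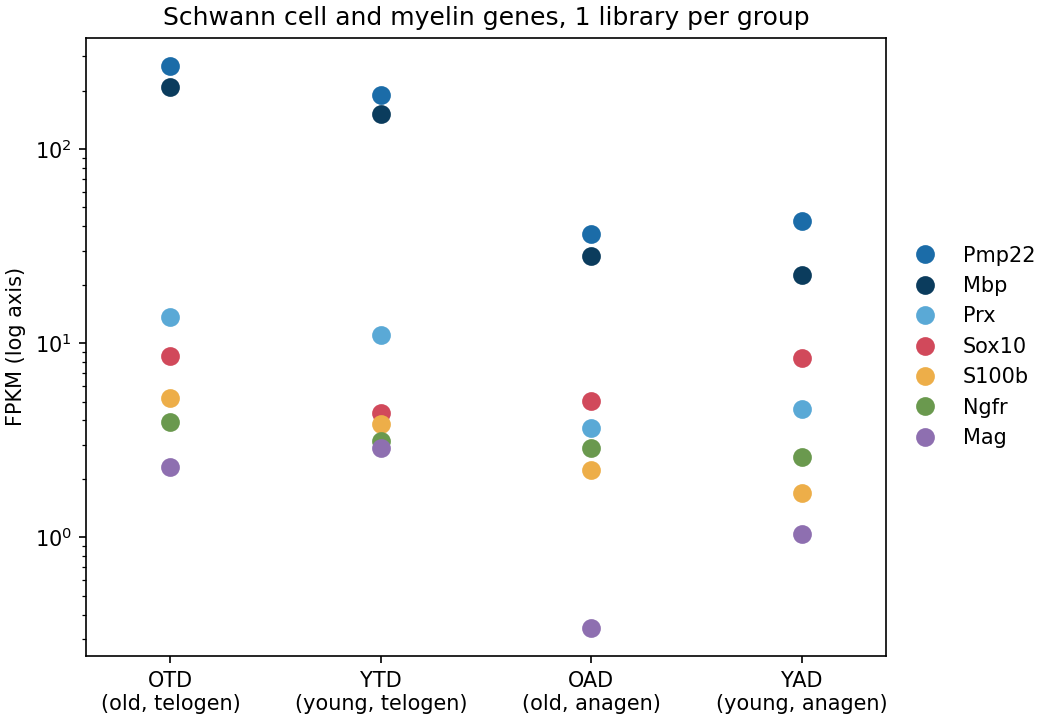
FPKM (log axis) of the 7 Schwann cell and myelin genes in each library, with 1 point per gene and library and no error bars, since each group is 1 library. Pmp22 ranged from 36.3 to 268 FPKM and Mbp from 22.4 to 208, with both telogen libraries above both anagen libraries, while Sox10 ranged from 4.35 to 8.55 without such a split.

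Since Pmp22, Prx and Mag lay together below their telogen values in anagen, their promoters are shown for the letters that regulators of myelin read. The windows are from RefSeq on GRCm38.p6 and run from 250 bases before to 50 bases after an annotated start site. Windows of 5 of the 7 genes were searched. No window of Mbp was searched, and Sox10 had none. The words searched on both strands were ACAAAG and ACAATG, cores of SOX sites, and GTGGGCG, a core of EGR sites, which do not overlap each other. Capitals mark a match. The first of 4 Pmp22 windows is chr11:63128732-63129031 (plus strand), the only Prx window is chr7:27499074-27499373 (plus strand), and the second of 3 Mag windows is chr7:30914814-30915113 (minus strand).
Pmp22: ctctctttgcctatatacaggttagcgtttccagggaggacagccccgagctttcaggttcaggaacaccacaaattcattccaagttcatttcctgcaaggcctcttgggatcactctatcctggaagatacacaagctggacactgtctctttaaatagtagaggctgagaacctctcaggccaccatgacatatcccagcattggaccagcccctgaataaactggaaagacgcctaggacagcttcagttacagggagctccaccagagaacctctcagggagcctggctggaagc
Prx: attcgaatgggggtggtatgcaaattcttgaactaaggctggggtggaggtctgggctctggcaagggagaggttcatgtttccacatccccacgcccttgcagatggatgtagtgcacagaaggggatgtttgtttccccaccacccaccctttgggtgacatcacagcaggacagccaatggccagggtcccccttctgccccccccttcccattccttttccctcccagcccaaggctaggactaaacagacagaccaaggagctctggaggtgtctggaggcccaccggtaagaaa
Mag: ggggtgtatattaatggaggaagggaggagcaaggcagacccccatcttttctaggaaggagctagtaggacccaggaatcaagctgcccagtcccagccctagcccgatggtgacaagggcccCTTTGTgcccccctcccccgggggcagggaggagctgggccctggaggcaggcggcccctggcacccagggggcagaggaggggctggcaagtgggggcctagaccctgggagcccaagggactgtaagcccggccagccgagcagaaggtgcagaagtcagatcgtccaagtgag
The Mag window held 1 SOX word, ACAAAG read on the opposite strand, at position -126 counted from the start site. The third Mag window overlaps it and holds the same word at position -67 from its own start site. No SOX or EGR word was found in the first Mag window, in the 4 Pmp22 windows, or in the windows of Prx, Ngfr and S100b. Of 32851 mouse promoter windows of this length, 28.6% held a SOX word and 8.0% the EGR word. These shares are per window, whereas the 5 genes had 1 to 4 windows each, so 1 gene with a SOX word is no more than a description.

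The other 3 genes are less bound to myelin. Sox10 (the transcription factor that defines the Schwann cell and melanocyte lineages, chromosome 15, 79154913 to 79164490) stood at 8.55 FPKM in OTD and 4.35 in YTD, against 5.02 in OAD and 8.43 in YAD. Its high libraries were 1 of telogen and 1 of anagen. Ngfr (the p75 neurotrophin receptor of immature and non-myelinating Schwann cells, also made elsewhere in skin, chromosome 11, 95568818 to 95587735) stood at 3.93 FPKM in OTD and 3.12 in YTD, against 2.90 in OAD and 2.60 in YAD, the narrowest range of the 7. S100b (a calcium-binding protein of Schwann cells that adipocytes also make, chromosome 10, 76253853 to 76261159) stood at 5.24 FPKM in OTD and 3.84 in YTD, against 2.23 in OAD and 1.70 in YAD. S100b had the same order of libraries as the summed adipocyte markers given above, and the part of adipocytes in its level was not tested. Mbp, Ngfr and the summed endothelial markers (700, 457, 182 and 139 FPKM in OTD, YTD, OAD and YAD) shared this order.

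Summed over the 7 genes, the level was 510 FPKM in OTD and 365 in YTD, against 78.6 in OAD and 83.2 in YAD, and Pmp22 and Mbp made up most of it. In order of level, Mbp, Ngfr and S100b ran OTD, YTD, OAD, YAD, and Pmp22 and Prx ran OTD, YTD, YAD, OAD. Mag ran YTD, OTD, YAD, OAD, and Sox10 ran OTD, YAD, OAD, YTD. Neighbours in these orders whose ratio had an interval that includes 1 were YTD and OTD for Mag, OAD and YAD for Ngfr and S100b, and YTD and OAD for Ngfr. For Sox10 these were OTD and YAD, with a ratio of 1.01 (0.884 to 1.16), and OAD and YTD, with a ratio of 1.15 (0.955 to 1.4).

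The first comparison asked how the hair cycle phase bears on these genes in young mice, YAD against YTD. Mbp was 6.76-fold (6.35 to 7.21) higher in YTD than in YAD, Pmp22 4.45-fold (4.20 to 4.71) and Prx 2.40-fold (2.14 to 2.70). On the log2 scale these are differences of -2.70, -2.13 and -1.10, and these 3 genes were called lower in anagen. Mag was 2.75-fold (1.90 to 4.08) and S100b 2.27-fold (1.59 to 3.25) higher in YTD, at log2 differences of -0.92 and -0.84, which miss the threshold. Ngfr was 1.20-fold (0.972 to 1.5) higher in YTD, an interval that includes 1, and its sign turned under 2 other scalings. Sox10 went the other way and was 1.94-fold (1.63 to 2.31) higher in YAD, at a log2 difference of 0.82.

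Of the 7 genes, 3 were called lower and 0 higher in young anagen, where 16.7% of the 17622 genes with a value above 0 in either library were called lower and 16.1% higher. The median difference of the 7 was -0.92, against 0.02 over those genes. The 4 myelin genes had a median of -1.61.

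In old mice, OAD against OTD, Pmp22 and Mbp differed by the largest factors of the 7. Mbp was 7.39-fold (6.99 to 7.83) and Pmp22 7.38-fold (6.96 to 7.83) higher in OTD than in OAD, at log2 differences of -2.84 and -2.85. Mag was 6.70-fold (3.68 to 12.6) higher in OTD, at a log2 difference of -1.29, and Prx 3.70-fold (3.28 to 4.19), at -1.64. S100b was 2.35-fold (1.74 to 3.22), Sox10 1.71-fold (1.46 to 1.99) and Ngfr 1.36-fold (1.11 to 1.65) higher in OTD, and none of these 3 was called. The sign of Ngfr turned in TPM. In all, 4 of the 7 were called lower and 0 higher (3 and 0 in TPM, where Mag lost its call), while 15.6% of 17712 genes were called lower and 16.1% higher. The median of the 7 was -1.29, against 0.01 over those genes. Sox10 was the gene whose sign differed between the ages, at 0.82 in young and -0.67 in old mice, and these 2 differences share no library. Each library enters 1 comparison of phase and 1 of age, so a phase difference and an age difference that share a library are not independent.

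**Figure D2:**
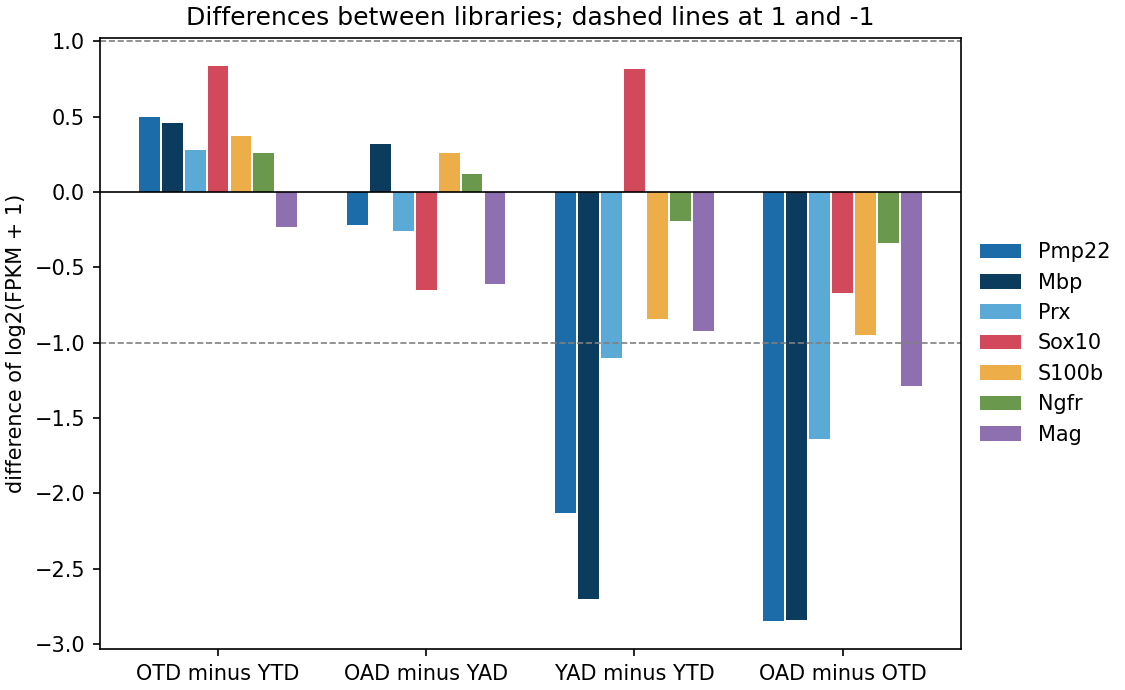
Differences of log2(FPKM + 1) of the 7 genes in the 4 comparisons, with dashed lines at the threshold of 1 in either direction. Bars of Mbp and Pmp22 reach -2.70 and -2.13 in young and -2.84 and -2.85 in old anagen, no bar passes a dashed line between the ages, and Sox10 points up in 2 of the comparisons and down in the others.

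Old and young telogen, OTD against YTD, differed by less. Sox10 was 1.97-fold (1.65 to 2.35) higher in OTD, at a log2 difference of 0.84. Pmp22 was 1.42-fold (1.37 to 1.47), Mbp 1.38-fold (1.33 to 1.42), S100b 1.36-fold (1.03 to 1.80), Ngfr 1.26-fold (1.02 to 1.54) and Prx 1.24-fold (1.13 to 1.36) higher in OTD. Mag alone was lower, 1.25-fold (0.916 to 1.74) higher in YTD, with an interval that includes 1. None of the 7 was called in either direction, where 1.67% of 17230 genes were called higher and 1.93% lower. The median of the 7 was 0.37, with 6 genes higher and 1 lower, against -0.03 over all genes. Skeletal muscle markers, by contrast, were lower in OTD, with a median of -0.67 and all 12 below YTD, while all 12 endothelial markers were above YTD, at a median of 0.61.

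In anagen, OAD against YAD, the genes split. Mbp was 1.26-fold (1.16 to 1.36) higher in OAD. S100b at 1.32-fold (0.893 to 1.91) and Ngfr at 1.12-fold (0.910 to 1.37) higher in OAD had intervals that include 1. Mag was 3.05-fold (1.6 to 5.91), Sox10 1.68-fold (1.45 to 1.95), Prx 1.25-fold (1.08 to 1.44) and Pmp22 1.17-fold (1.09 to 1.26) higher in YAD. None of the 7 was called, where 0.727% of 17613 genes were called higher and 0.454% lower. The 3.05-fold difference of Mag is -0.61 on the log2(FPKM + 1) scale, as its FPKM were near 1. The median of the 7 was -0.22, with 3 genes higher and 4 lower, against 0.00 over all genes.

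**Figure D3:**
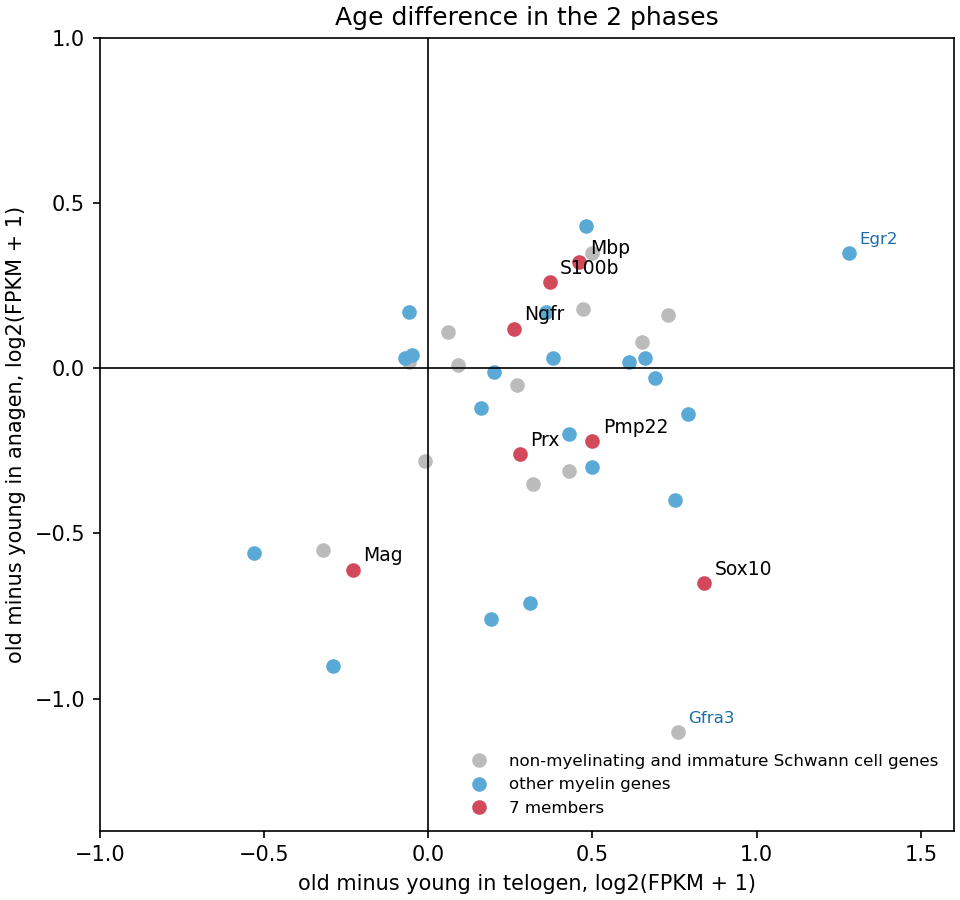
Old minus young differences of log2(FPKM + 1) in telogen (horizontal axis) and in anagen (vertical axis) for the 7 genes (red), the other 20 myelin genes (blue) and 13 genes of non-myelinating and immature Schwann cells (grey), with 1 point per gene. Sox10 (0.84 and -0.65), Pmp22 (0.50 and -0.22) and Prx (0.28 and -0.26) lie to the lower right, higher in old telogen and lower in old anagen.

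Most of the other 20 myelin genes were also lower in anagen. In young anagen 11 were called lower and 2 higher, with a median of -1.08 (-0.40 in TPM), and in old anagen 12 were called lower and 1 higher, with a median of -1.65 (-1.27 in TPM). Cnp, an enzyme of the myelin cytoplasm, had 30.5 FPKM in OTD and 22.4 in YTD, against 4.03 in OAD and 4.79 in YAD, and was called lower in anagen at both ages. Pllp (plasmolipin) was called lower at -2.30 in young and -2.35 in old mice, Cldn19 (a claudin of Schwann cell junctions) at -1.91 and -2.12, and Ncmap (a protein of non-compact myelin) at -1.81 and -2.16. Dhh, the hedgehog ligand that Schwann cells send to the perineurium, was at -0.92 in young mice and was called lower at -1.85 in old mice.

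The 2 genes called higher were transcription factors. Pou3f1 (Oct6, which promyelinating Schwann cells need and keratinocytes also make) had 1.66 FPKM in OTD and 1.79 in YTD, against 21.4 in OAD and 21 in YAD, and was called higher in anagen at 2.98 in young and 3.08 in old mice. Egr2 (Krox20, which drives myelin genes and is also made in the HF) had 7.38, 2.46, 14.3 and 11 FPKM. It was called higher in young anagen at 1.80 and was at 0.87 in old mice. Cadm4, an adhesion molecule of the internode, had 27.7, 17.1, 27.8 and 27.2 FPKM and was called in neither phase comparison. Keratinocyte markers had median differences of 3.18 in young and 4.26 in old anagen, with all 10 higher, and summed to 93.6 FPKM in OTD and 150 in YTD, against 2598 in OAD and 2046 in YAD. Their part in the levels of Pou3f1 and Egr2 was not tested.

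Between the ages the 20 myelin genes had a median of 0.37 in telogen, with 15 higher and 5 lower, and of -0.02 in anagen, with 9 higher and 11 lower. Egr2 was called higher in OTD, at 1.28. It belongs to the immediate early genes, and 7 of 8 other genes of that kind were also called higher there (median 2.18).

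Genes of non-myelinating and immature Schwann cells had low levels, at most 8.14 FPKM. Of 13, 4 were called lower and 2 higher in young anagen (median -0.24), and 4 lower and 1 higher in old anagen (median -0.84). Scn7a, a sodium channel of Remak cells, had 8.14 FPKM in OTD and 4.84 in YTD, against 1.6 in OAD and 1.45 in YAD, and Cdh19, a cadherin of the Schwann lineage, 6.59, 3.56, 1.22 and 0.982. Both were called lower in anagen at both ages, as were the cell adhesion gene Ncam1 and the growth cone gene Gap43. L1cam, an adhesion molecule, was called higher in young anagen at 1.12, and Fabp7, a fatty acid binding protein, was called higher at 2.30 in young and 1.64 in old anagen. In telogen OTD exceeded YTD for 10 of the 13, at a median of 0.32 and with none called. In anagen Gfra3, a receptor subunit for artemin, was called lower in OAD at -1.10, with 0.510 FPKM against 2.24 in YAD. Gfap, a filament protein of Remak cells, stood between 0.103 and 0.180 FPKM, on an estimated 5.61 to 7.34 fragments.

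Sox10 is shared with melanocytes, whose markers differed between the libraries. The 11 melanocyte markers summed to 17.6 FPKM in OTD and 21.3 in YTD, against 524 in OAD and 855 in YAD, none was at 0 in a library, and all 11 were called higher in anagen at both ages. Mlana had 7.86, 7.05, 173 and 233 FPKM and Dct 1.51, 2.86, 101 and 168. In anagen all 11 were lower in OAD than in YAD, with a median of -0.73 and with Pmel called at -1.03, beside -0.65 for Sox10. In telogen, where Sox10 was higher in OTD by 0.84, the melanocyte markers had a median of -0.21 with 4 higher and 7 lower, and Cdh19 and Scn7a were higher in OTD by 0.73 and 0.65. The part of melanocytes in the level of Sox10 was not tested.

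The 3 neuregulin signal genes did not share the pattern of most myelin genes, and all 3 were higher in anagen at both ages. Erbb2 and Erbb3 form the receptor for neuregulin, the axonal signal that sets myelination, and are also made by keratinocytes. Erbb2 had 4.0 FPKM in OTD and 4.20 in YTD, against 25.1 in OAD and 25.8 in YAD, and Erbb3 3.66, 4.18, 18.5 and 16.7. Both were called higher in anagen at both ages. Nrg1, the ligand, was listed at 0 in OTD, at 0.0624 FPKM in YTD, at 0.680 in OAD and at 2.08 in YAD, and was called higher in young anagen only, at 1.54 against 0.75 in old mice. The difference between these was not tested.

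Among 8 neurotrophin ligands and receptors, the ligand Ntf3 and the receptor Ntrk2 were called lower in anagen at both ages, at -1.21 and -1.09 in young and -1.63 and -1.51 in old mice. Ntf5 (neurotrophin 4) had 1.19 FPKM in OTD and 3.97 in YTD, against 4.21 in OAD and 3.98 in YAD. OTD was the low library, and Ntf5 was called lower in old telogen at -1.18 and higher in old anagen at 1.25. Sort1, a co-receptor that binds neurotrophin precursors together with Ngfr, had 19.6 to 25.0 FPKM and was called in no comparison.

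The cell bodies of the neurons that supply the skin lie outside it. The neurofilament genes Nefl, Nefm and Nefh stood at 0.0302 FPKM or less in every library, on at most an estimated 1.67 fragments. Stmn2, a growth cone protein, had 11.8 FPKM in OTD and 5.07 in YTD, against 1.88 in OAD and 1.34 in YAD. It was called higher in old telogen at 1.08 and lower in anagen at -1.38 in young and -2.15 in old mice. Uchl1, a neuronal ubiquitin hydrolase, was called lower in anagen at -1.55 and -1.79. Th, the enzyme that starts catecholamine synthesis, had 4.27, 15.3, 1.31 and 1.34 FPKM and was called lower in OTD than YTD at -1.63, and lower in anagen at both ages. Tubb3, a tubulin of neurons that other cells also make, was called higher in anagen at 3.33 and 3.06.

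Lower values in anagen were not particular to nerve genes. The marker lists of the cell types that share the fat layer had median differences between young anagen and telogen of -1.51 (adipocyte, 12 of 12 lower), -1.62 (endothelial, 12 of 12), -1.15 (fibroblast, 9 of 9), -0.81 (smooth muscle and pericyte, 6 of 7), -1.43 (macrophage, 8 of 8) and -3.09 (skeletal muscle, 12 of 12). In old mice these were -1.4, -1.88, -2.79, -1.83, -2.33 and -2.04. In TPM, in the same order, they were -0.79, -0.81, -0.31, 0.03, -0.67 and -2.25 in young and -0.79, -1.29, -2.18, -1.31, -1.79 and -1.42 in old mice, so that the smooth muscle and pericyte list changed sign in young mice. In young mice the 7 genes, at -0.92, and the other myelin genes, at -1.08, lay within the range of these medians. In old mice the other myelin genes, at -1.65, did so too, while the 7 genes, at -1.29, were just outside it as deposited, and inside it in TPM and with either smaller pseudocount. Melanocyte, keratinocyte, and hair matrix and shaft genes went the other way, the last with medians of 6.02 and 6.75. The part of a different mix of cells in the scraped tissue was not tested.

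**Figure D4:**
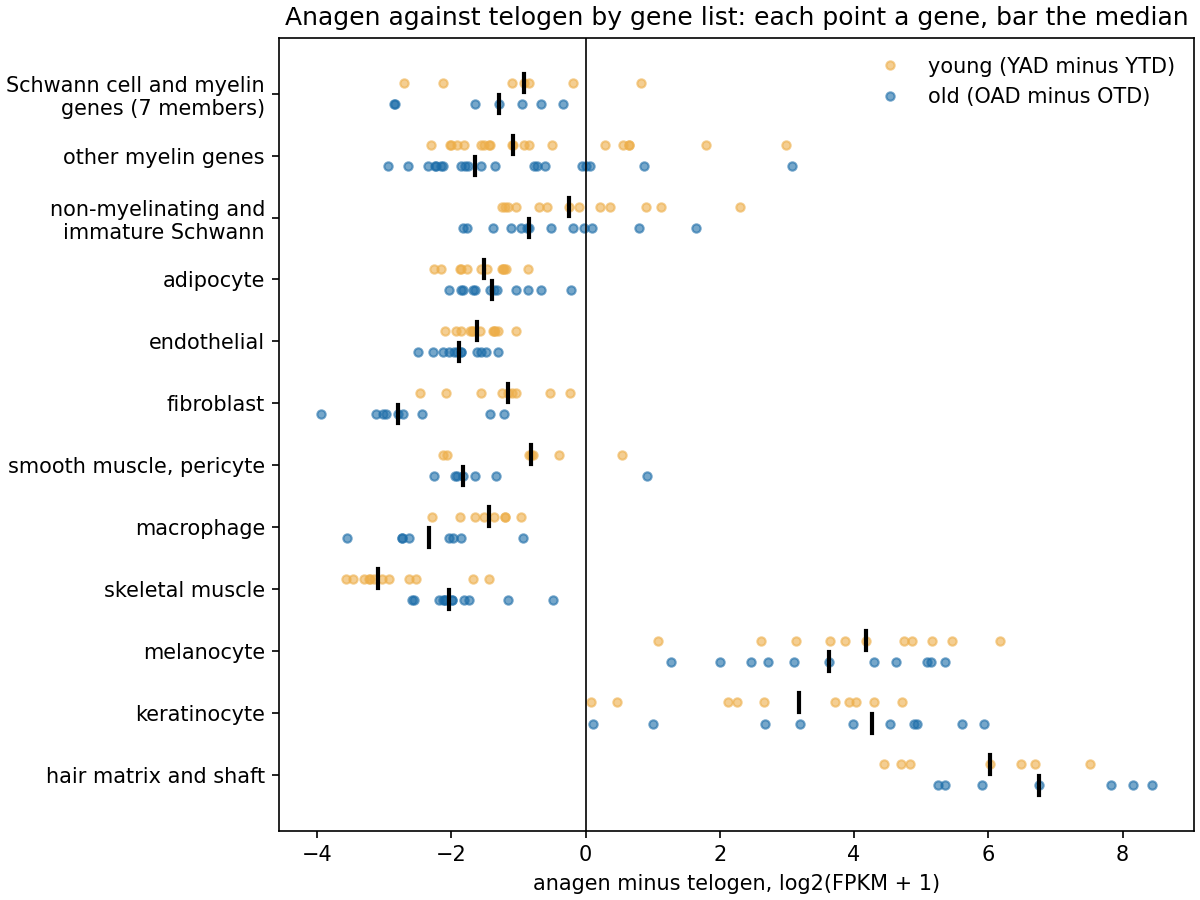
Anagen minus telogen differences of log2(FPKM + 1) for the genes of 12 lists, in young (yellow) and old (blue) mice, with 1 point per gene above 0 in either library and a black bar at the median. The 7 Schwann cell and myelin genes (medians -0.92 and -1.29) sit on the same side as adipocyte, endothelial, fibroblast, macrophage and skeletal muscle genes, while melanocyte (4.17 and 3.62), keratinocyte (3.18 and 4.26) and hair genes (6.02 and 6.75) sit opposite.

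In TPM the median of the 14203 genes that reached an FPKM of 1 somewhere was 0.72 in young and 0.56 in old anagen against telogen, where it was 0.01 and 0.05 as deposited. Between the ages in anagen it was -0.20, against 0.00 as deposited. With it, Mbp and Pmp22 were at -1.88 and -1.29 in young and -2.24 and -2.24 in old anagen, still called lower, and Prx was at -0.37 in young mice, no longer called, and at -1.11 in old mice. Relative to the shift of all genes, each of these 3 remained lower in anagen at both ages. Mag in old mice was at -1.0, just short of a call, so that 3 genes were called lower there. Over all genes in TPM, 1502 of 17712 were called lower in old anagen and 4923 higher. Sox10 was called higher in young anagen in TPM, at 1.55, where 5891 of 17622 genes were called higher and 1274 lower. When mitochondrial, muscle, keratinocyte and hair genes were left out of the scaling, Sox10 was likewise called higher in young anagen, at 1.05. Prx lost its call there, at -0.86. Over all genes that scaling called 3651 of 17622 higher in young anagen and 2262 lower. Ngfr, the gene with the narrowest range, changed sign under TPM in young (0.44) and old anagen against telogen (0.14) and between the ages in anagen (-0.06).

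Each gene was also compared by its profile, its 4 values of log2(FPKM + 1) less their mean. It was set against the median profile of the genes of each list that reached an FPKM of 1 in a library. This kept, for example, 9 of 13 non-myelinating and immature Schwann cell genes, 6 of 8 neurotrophin genes and 4 of 14 axon genes. The distance is the root of the summed squares over the 4 libraries. Profiles were not scaled, so it reflects the size of the differences between libraries as well as their order. Prx was nearest to the other myelin genes, at 0.16, and Ngfr to the non-myelinating and immature Schwann cell genes, at 0.63. S100b was nearest to the neurotrophin list at 0.19 and Mag to the other 6 genes at 0.59. Pmp22 lay nearest to macrophage markers, at 0.64, and Mbp to skeletal muscle markers, at 0.86, so this distance does not assign a gene to a cell type. Sox10 lay nearest to the non-myelinating and immature Schwann cell genes, at 1.06, the largest distance of the 7 genes to a nearest list. It lay at 3.90 from the melanocyte markers, the smallest such distance of the 7, where the others ran from 4.23 (Ngfr) to 6.73 (Mbp). This was not particular to melanocyte markers. Sox10 also had the smallest distance of the 7 to keratinocyte (4.21), hair matrix and shaft (6.46) and neuregulin signal genes (2.08).

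Among the 11007 genes that reached an FPKM of 1 in all libraries, the 5 with profiles most like the mean of Mbp, Pmp22, Prx and Mag included B3galnt1, Cyp27a1, Snx10 and Vwa5a, at distances of 0.109 to 0.115. Cyp27a1, a sterol hydroxylase of mitochondria, had 20.8 FPKM in OTD and 16.4 in YTD, against 4.13 in OAD and 4.36 in YAD. Of the other myelin genes, Cldn19 came at rank 10, Ncmap at rank 19, Drp2 at rank 168 and Cnp at rank 219. Others came further down, among them Pllp at rank 621, Dhh at 748, Cadm4 at 6805, Egr2 at 9993 and Pou3f1 at 10749. Likeness over 4 libraries is a description of these libraries and carries no test.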

How the data were processed

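dWAT was microdissected, and its RNA (integrity number above 7.5) was sequenced by Illumina. The submitters' processing notes name bcl2fastq, TopHat2 and GRCm38, with no versions, and the counting tool, annotation and scaling are not given in the sources used here. The authors deposited FPKM for 22913 genes in 1 library per group, beside a length that equals the longest coding length plus 3 bases of stop codon for 20173 genes (GENCODE M21). Products of FPKM and whole transcript length gathered at 1 fragment more sharply (46.5% to 70.4% of low values within 10% of 1) than those with the listed length (31.2% to 37.3%), so depth and fragments were estimated with transcript lengths, at 16337336 for OTD, 15387967 for YTD, 20006967 for OAD and 20567488 for YAD. Symbols were matched for 21750 of 22166 Ensembl identifiers. Genes above 0 in either library were compared by log2(FPKM + 1), with a threshold of 1. Intervals of ratios are exact (Clopper-Pearson, 95%) for 2 fragment counts given their sum. The genes and lists were chosen with earlier results of these data known. The genes named from a list are those past the threshold in a comparison described and up to 4 with the highest mean FPKM, and the closest profiles are from the first 5. Some genes that this rule names are not reported here. Genes named beyond this rule were picked after their values were seen. Krt85 was not analysed here. Steps were tested on simulated data and run in Python 3.11.15 (scipy 1.17.1, pandas 2.3.3, numpy 2.4.6). Alternatives were pseudocounts of 0.1 and 0.01, a filter at an FPKM of 1, a threshold of 1.5-fold, and 3 other scalings.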

Additional observations from a re-analysis of the deposited data

Results flagged for a closer look

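For 3 of the 7 genes the age difference had opposite signs in the 2 phases. Pmp22 was higher in old mice by 0.50 in telogen and differed by -0.22 in anagen. Prx was at 0.28 in telogen and -0.26 in anagen. Sox10 was at 0.84 in telogen and -0.65 in anagen. All 6 counting intervals leave out 1, but each value compares 2 single libraries, and the difference between the phases was not tested. The signs held under each of the 3 other scalings. Mbp, by contrast, was higher in old mice in both phases (0.46 and 0.32).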

How the results depend on the processing

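No paired analysis was possible because each group is 1 library, and no library could be left out. Of 52 counts and medians of the 7 genes under an alternative, 38 stayed near the reported value. The filter at an FPKM of 1 removed none of the 7, so its values among these could not differ. The threshold of 1.5-fold gave 1 called gene in telogen between the ages, 2 in anagen between the ages and 6 in young anagen against telogen. Over all genes it called 1163 higher and 1591 lower of 17230 in telogen between the ages. In anagen between the ages these were 525 and 350 of 17613, and in young anagen against telogen 4622 and 4591 of 17622. Pseudocounts of 0.1 and 0.01 each called 1 gene lower between the ages in anagen and 5 lower in young anagen against telogen. Over all genes in young anagen they called 4189 higher and 4279 lower, and 4903 and 4858, of 17622. Between the ages in anagen these counts were 577 and 532, and 1236 and 1199, of 17613. The same pseudocounts moved the median of the 7 genes to -1.24 and -1.26 in young and to -1.86 and -1.88 in old anagen. TPM moved the medians to -0.45 between the ages in anagen, -0.37 in young and -1.0 in old anagen against telogen. Of 168 values of single genes, 4 changed sign, all of Ngfr, among them 0.01 in young anagen when mitochondrial, muscle, keratinocyte and hair genes were left out of the scaling, which put the median of all genes there at 0.24 in place of 0.01. Over all genes, the share of calls that were higher depended on the scaling. It was 49.1% in young and 50.8% in old anagen as deposited and 82.2% and 76.6% in TPM. Leaving out those genes gave 61.7% in young anagen and 64.7% in place of 46.3% between the ages in telogen. In anagen the ages gave 61.5% as deposited, 37.3% in TPM and 48.7% without those genes. Pseudocounts of 0.1 and 0.01 raised the calls between the ages in telogen from 287 higher and 333 lower to 1081 and 1063, and to 1800 and 1645. Depth limits Mag in OAD (an estimated 13.7 fragments), Gfap and the neurofilament genes, whose values rest on few fragments.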
